A study of Mus musculus with 4 samples.

Results

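The genes described here are those of the ubiquitin conjugating enzymes and of the ubiquitin specific proteases of the mouse testis, in a comparison of animals with and without a functional copy of Nef-sp, a testis-specific RNA exonuclease. They were chosen by symbol alone, as the gene exon sense features that begin with Ube2 or with Usp and a digit. This gave 73 genes, 32 Ube2 and 41 Usp, of 12415 gene exon sense features and 25745 features in 10 annotation categories. Total RNA came from whole testis of adult mice at postnatal day 60 on the C57Bl/6J background, with 2 libraries of the genotype Nef-sp-/-, called mutants below, and 2 of the genotype Nef-sp+/-, called controls. Both genotypes carry the same allele, an out-of-frame deletion made with Cas9 nickase and a pair of guide RNAs, on both chromosomes in the mutants and on 1 in the controls, so no wild-type library entered the comparison. The allele is present in every cell of the animal. The labels do not say whether the libraries of a genotype came from separate animals or litters, so that the p-values measure only the spread between these libraries.

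Ubiquitin is a small protein that is joined to other proteins as a tag for degradation, sorting or repair. An activating enzyme charges a conjugating enzyme, the product of a Ube2 gene, and a ligase then directs the ubiquitin from it to a target, while the Usp proteases take ubiquitin off again. In the testis the system is known for the ubiquitylation of histones in meiosis and in spermatids, where histones are exchanged for protamines, and for the removal of proteins and organelles when spermatids shed their cytoplasm. Usp6nl carries the symbol without being a protease of this kind: it is a Rab GTPase-activating protein named after its likeness to Usp6. Usp52 is known today as Pan2, a subunit of an RNA deadenylase, and Ube2d2 as Ube2d2a.

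The libraries held between 20659865 and 34442517 reads in all categories, of which 76.5% to 77.4% were gene exon sense reads. Values below are normalized counts, that is read counts divided by the effective size of the library relative to the mean over the 4 libraries, and they are given for replicate 1 and then replicate 2 of a genotype. Nef-sp itself, annotated as 2610020H08Rik, had 1843 and 1693 normalized counts in the control libraries and 407 and 497 in the mutant libraries, and it was the only one of 10728 tested features with an adjusted p below 0.05 (log2 fold change -1.97, SE 0.0921, adjusted p = 4.1e-06, edgeR quasi-likelihood test). All listed markers of spermatogonia, spermatocytes, round spermatids and elongating spermatids had a row in the table, 6 of 6, 6 of 6, 5 of 5 and 6 of 6. Of the spermatogonial markers, Gfra1 and Zbtb16 had too few reads to be tested. One library stood apart in the elongating spermatid markers. These 6 summed to 344660 normalized counts in control replicate 1, against 427758 in replicate 2 and 433860 and 421413 in the mutants. The sum in control replicate 1 is 0.806 times the mean of the other 3 libraries. In whole tissue, fewer cells of a type and less RNA per cell cannot be told apart.

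Sequence sets how well some of these genes can be counted from reads of 50 bases, since the families are old and have many processed copies in the genome. A pair of comparisons of reference sequence is shown for this reason, with the bases that differ in capitals. The first is the same part of the coding sequence, bases 338 to 397, of Ube2a and Ube2b, the mouse counterparts of yeast Rad6. Ube2a lies at chrX:34423014-34423073 on the plus strand of mm9 and Ube2b at chr11:51800246-51800305 on the minus strand, each stretch within 1 exon.
Ube2a: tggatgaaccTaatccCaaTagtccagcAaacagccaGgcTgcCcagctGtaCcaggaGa
Ube2b: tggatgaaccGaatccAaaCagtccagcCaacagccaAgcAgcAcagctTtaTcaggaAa
These 60 bases differ at 10 positions, and the whole coding sequences, of 459 bases each, differ at 103, so that 77.6% of the bases are identical. The longest identical run is 17 bases, shorter than a read, so that no perfectly matching read can belong to both genes.

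The second comparison is of Ube2s with a copy of itself. Ube2s lies on the minus strand of chromosome 7, and the stretch shown, coding bases 283 to 342, is at chr7:4762024-4762083. The copy is on the plus strand at chr9:56285703-56285762, inside a stretch from 56285246 to 56286233 where the annotation used here has no exon.
Ube2s: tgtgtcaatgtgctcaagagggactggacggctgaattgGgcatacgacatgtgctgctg
copy of Ube2s: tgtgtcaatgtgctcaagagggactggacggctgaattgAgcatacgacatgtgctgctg
The base in capitals is the only difference between the transcript of Ube2s, 988 bases long, and the copy. Of the 792 stretches of 50 bases within exons of Ube2s, 771, or 97.3%, occur elsewhere in mm9. How reads with several perfect matches were assigned is not given in the sources used here, so that reads counted for Ube2s cannot be told apart from reads of the copy.

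In the same count for all 73 genes, shared stretches were more frequent among Ube2 genes, though the families overlapped. In 34 genes, 8 Ube2 and 26 Usp, no 50-base exonic stretch occurred at another place. In 11 genes, 9 Ube2 and 2 Usp, more than 20% of the stretches did. After Ube2s, the largest shares were 59.9% for Ube2v1, 53.6% for Ube2d2, 45.7% for Usp9x and 43.9% for Ube2h, followed by 34.7% for Ube2v2, 27.9% for Ube2d3, 27.8% for Usp1, 25.6% for Ube2n, 22.1% for Ube2l6 and 20.3% for Ube2q2. The shared part of Usp1 lies mainly at chr3:8327798-8330261, where no exon is annotated. That of Usp9x lies mainly within and next to its own locus, where the pseudogenes Gm14536 and Gm15027 are annotated. The counts of these genes carry that uncertainty.

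**Figure D1:**
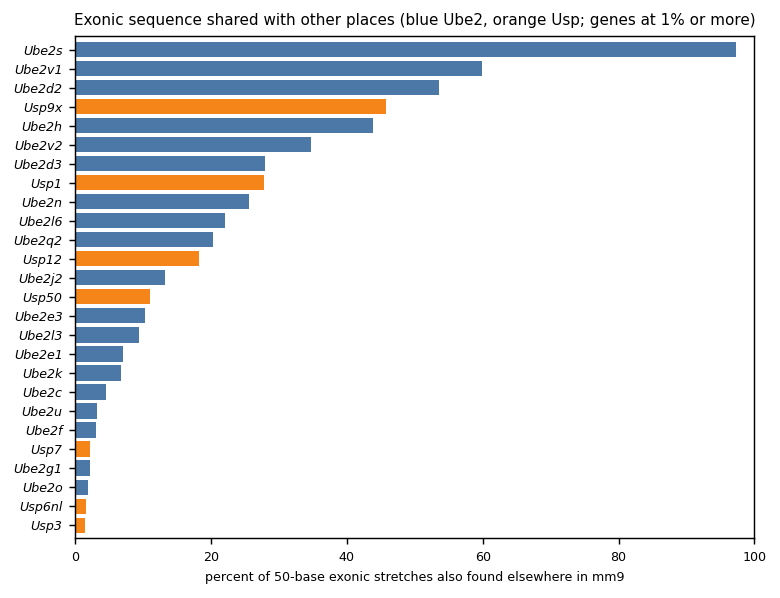
Each bar gives, for 1 gene, the percent of its 50-base exonic stretches that also occur elsewhere in mm9 (horizontal axis, 0 to 100), with Ube2 genes in blue and Usp genes in orange, for 26 genes at 1% or more. Ube2s stands at 97.3%, and 9 of the 11 genes above 20% are Ube2 genes.

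The levels of the 73 genes spanned more than 3 orders of magnitude. No listed feature had fewer than 5 reads over the 4 libraries, so that genes without reads could not be among the 73. Levels between genes are given as normalized counts per kilobase of annotated exon, as means over the 4 libraries. Only reads that matched the genome perfectly were kept, which a read across an exon junction does not. Genes of many short exons may thus be listed too low, and the order of genes at similar levels holds for this measure only. The highest level was 3680 times the lowest among tested genes. The median was 361 per kilobase for Ube2 genes and 223 for Usp genes, against 87.5 for all annotated features, and 54 of the 73 genes lay above the latter. Of all 73 genes, 14 were among the top 10% of 11414 annotated features.

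Ube2s, which extends ubiquitin chains for the anaphase-promoting complex, was listed at the highest level, with 12399 and 11988 per kilobase in the controls and 12444 and 12577 in the mutants, rank 52 of all annotated features, and with the limit on its reads given above. Usp1, which deubiquitinates proteins of DNA repair, followed at 5296 and 5410 against 5319 and 5117 per kilobase. Usp15 (3273 per kilobase in the mean), Usp47 (3095) and Ube2j1 (3068) came next. Usp15, known for regulating TGF-beta receptor signaling, was above Usp47 in each library, whereas the libraries of Usp47 and Ube2j1 overlapped, so that these 2 cannot be ordered. Ube2j1 sits in the membrane of the endoplasmic reticulum and serves the degradation of misfolded proteins there.

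Usp8, which removes ubiquitin from receptors at endosomes, had 2760 per kilobase, and Usp2, a gene long known from testis for its isoforms, had 2120. Among the conjugating enzymes, Ube2d3, a broad-acting one, had 1889 per kilobase and Ube2n, which builds the chains used in DNA repair and signaling, had 1688. Usp44, a protease of mitotic checkpoint proteins and histones, had 1682 per kilobase, and its libraries (1532 to 1757) overlapped with those of Ube2n (1584 to 1733). Ube2m, which conjugates the ubiquitin-like protein Nedd8, had 1402 per kilobase and Ube2u, a little-studied gene, had 1361, again with overlapping libraries. When the longest transcript was used as the length, 10 of these 12 genes stayed among the 6 highest of their family, and Ube2b and Usp7 took the places of Ube2u and Usp44.

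At the other end, Ube2d1 had 5.96 per kilobase and Ube2v2, a cofactor of Ube2n, had 3.36. Its paralog Ube2v1, another cofactor of Ube2n, had 397. The genes Ube2l6 and Usp43 had too few reads to be tested. Ube2l6, the conjugating enzyme of the interferon-induced ubiquitin-like protein ISG15, had 1 and 12 reads in the controls and 5 and 2 in the mutants. Usp43 had 2 and 3 reads against 0 and 0, and a count of 0 allows up to 3 reads in a library. Without the expression filter, Usp43 had an unadjusted p of 0.038 and an adjusted p of 0.961 by edgeR.

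**Figure D2:**
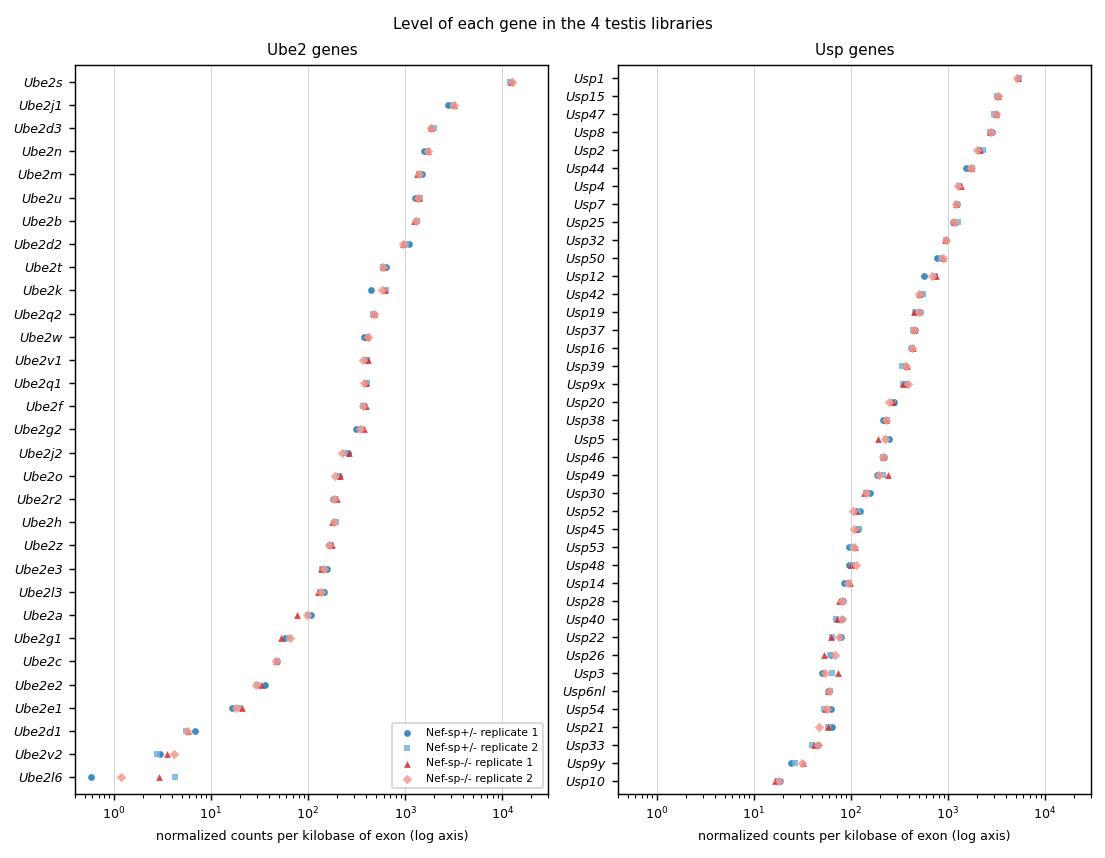
Normalized counts per kilobase of exon (horizontal log axis) are plotted for each gene reported here, Ube2 on the left and Usp on the right, with 1 point per library: circles and squares for Nef-sp+/- replicates 1 and 2, triangles and diamonds for Nef-sp-/- replicates 1 and 2. Usp43, with 0 reads in both Nef-sp-/- libraries, is not drawn. Levels run from Ube2s at 12352 in the mean down to Ube2l6 at 2.22, and the points of most genes lie close together. Those of Ube2l6, on few reads, spread from 0.577 to 4.23.

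Paralogs differed in level. Ube2b, whose loss makes male mice infertile, had 1289 per kilobase, while Ube2a on the X chromosome had 95.6. Usp9x, on the X chromosome, had 360 per kilobase and Usp9y, its counterpart on the Y chromosome, had 28.6. Both members of each pair were measured in the same libraries, and for each pair the ranges over the 4 libraries were far apart. Usp26, another X-linked gene, known from testis, had 61.3 per kilobase.

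Together the genes took 1.12% to 1.14% of the gene exon sense reads of a library. The Ube2 genes held 0.3622% and 0.3654% of these reads in the controls and 0.3628% and 0.3621% in the mutants, and the genotypes overlapped (exact two-sided permutation test, p = 0.667). The Usp genes held 0.7752% and 0.7634% in the controls and 0.7548% and 0.7582% in the mutants. The Usp share was thus lower in both mutant libraries, with means of 0.769% ± 0.00838 in the controls and 0.757% ± 0.00242 in the mutants (SD, n = 2 each), a difference of -0.0128 percentage points. The exact two-sided permutation test gave the smallest p that 2 libraries against 2 allow, which is above 0.05. These are shares of raw reads, without the normalization factors of the libraries. Those factors were 1.023 and 0.9941 in the controls and 0.9873 and 0.9958 in the mutants. On normalized counts, 18 of the 40 tested Usp genes were higher and 22 lower in the mutants, with a median log2 fold change of -0.01.

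No Ube2 or Usp gene passed the test between genotypes. Of the 73 genes, 71 had enough reads to be tested, 31 Ube2 and 40 Usp, and 0 of them had an adjusted p below 0.05 in the edgeR quasi-likelihood test (background 0.00932% of all features tested, the smallest adjusted p of the genes being 0.954). An unadjusted p below 0.05 was found for 3 of 71 genes, or 4.23%, against 4.8% of all features tested. DESeq2 was fitted to all 12415 gene exon sense features, without the filter. By DESeq2, 0 of the 73 genes had an adjusted p below 0.05 (background 0.0161%) and 0 an unadjusted one (background 1.14%). Of the 71 genes, 1 was higher in the mutants at an unadjusted p below 0.05 (background 1.97%) and 2 were lower (background 2.83%).

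The estimated differences were small. The log2 fold change of mutants over controls ranged from -0.26 to 0.42, with a median of -0.04 for Ube2 genes, -0.01 for Usp genes and -0.00 for all features tested. It was above 0 in 31 genes and below 0 in 40 (above 0 in 49.9% of all features tested). Both mutant libraries were above both control libraries in 11 genes (background 16.4%) and below them in 16 (background 18.1%), and in the other 44 genes the genotypes overlapped (they did not overlap in 34.5% of all features tested). The 95% interval of the fold change lay within 1.5-fold in either direction in 69 of 71 genes, or 97.2%, against 81.6% of all features tested. The median SE was 0.0708 for these genes and 0.0893 for all features, which have lower counts on the whole. The exceptions were the weakly expressed Ube2d1 (interval -0.66 to 0.53) and Ube2v2 (interval -0.34 to 1.17), for which a change of 1.5-fold could not be judged at this depth.

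**Figure D3:**
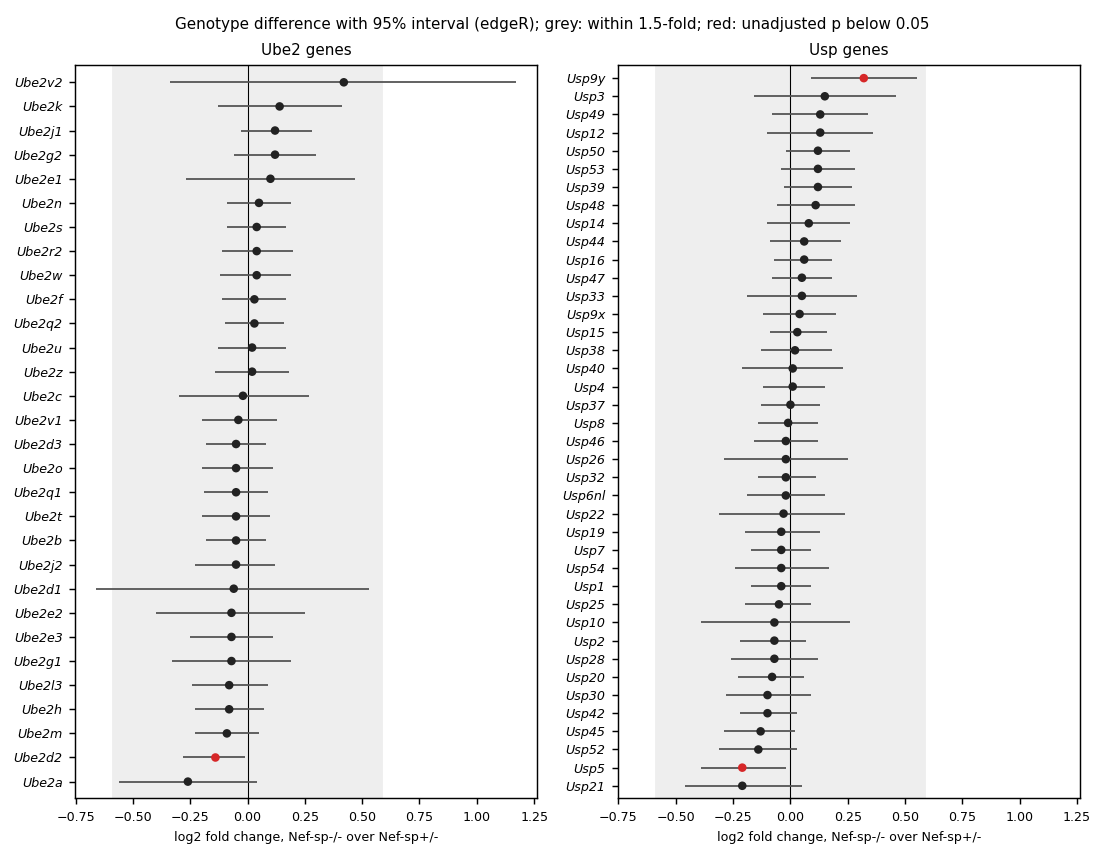
For each tested gene reported here, Ube2 on the left and Usp on the right, the point is the log2 fold change between genotypes (positive where Nef-sp-/- was higher) and the line its 95% interval from the edgeR fit, with a grey band for changes within 1.5-fold and red points for an unadjusted p below 0.05. All lines but those of Ube2d1 and Ube2v2 stay inside the band, and the red points are Usp9y, Usp5 and Ube2d2.

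The Rad6 counterparts come first among the conjugating enzymes, as they act with the ligase Rad18 in DNA damage tolerance and with Rnf20 and Rnf40 on histones. Ube2a had 178 and 168 normalized counts in the controls and 128 and 161 in the mutants. Both mutant libraries were lower, but they differed from each other by 1.26-fold, and the log2 fold change of -0.26 (SE 0.135) had an unadjusted p of 0.085 and an adjusted p of 0.954 by edgeR. With each library left out in turn, it was between -0.43 and -0.10. Ube2b had 2754 and 2818 against 2623 and 2770, with overlapping genotypes and a log2 fold change of -0.05.

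Among the enzymes of the cell cycle and DNA repair, Ube2c, which starts chains for the anaphase-promoting complex, had 124 and 123 normalized counts against 122 and 122. Ube2s had 12250 and 11844 against 12294 and 12426 and Ube2t, the conjugating enzyme of the Fanconi anemia pathway, had 1145 and 1056 against 1062 and 1057. The log2 fold changes of these 3 genes were between -0.05 and 0.04. Of the 3, Ube2c had the libraries closest to one another.

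Of the broad-acting Ube2d and Ube2e genes and Ube2w, 2 had a positive and 5 a negative log2 fold change. Ube2d2 had 2712 and 2526 normalized counts in the controls and 2357 and 2378 in the mutants, so that both mutant libraries were lower (log2 fold change -0.14, SE 0.0616, unadjusted p = 0.0401 and adjusted p = 0.954 by edgeR). Ube2d3, its paralog, had 5008 and 5274 against 4991 and 4934, a log2 fold change of -0.05. Both share much of their sequence with other places, as given above.

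Ube2n had 6126 and 6702 normalized counts against 6682 and 6607, and its cofactor Ube2v1 had 1074 and 1113 against 1131 and 1005, each with overlapping genotypes. Ube2v2, with 12.7 and 12 against 15 and 17.7, had the highest log2 fold change of the 71 genes (0.42) and also a wide error (SE 0.344, unadjusted p = 0.277, adjusted p = 0.956 by edgeR). Ube2m, of the enzymes of the ubiquitin-like proteins, had 3246 and 3025 against 2865 and 3018. Both mutant libraries of Ube2m were lower, with a log2 fold change of -0.09 (unadjusted p = 0.178, adjusted p = 0.954 by edgeR).

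Among enzymes that build chains for degradation, Ube2j1 had 9685 and 11042 normalized counts in the controls and 11349 and 11237 in the mutants. Both mutant libraries were higher, by a log2 fold change of 0.12 (SE 0.0701, unadjusted p = 0.107, adjusted p = 0.954 by edgeR), but the value of control replicate 2 was nearer to them than to replicate 1 of its own genotype. Ube2u, which was not placed in this group, had 1947 and 2166 against 2136 and 2055, with overlapping genotypes.

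Among the Usp genes of chromatin and DNA repair, 4 of 10 had a positive and 6 a negative log2 fold change, between -0.21 and 0.15. Usp21, a histone deubiquitinase, had 302 and 276 normalized counts in the controls and 275 and 222 in the mutants (log2 fold change -0.21, unadjusted p = 0.104, adjusted p = 0.954 by edgeR), and its log2 fold change was between -0.37 and -0.06 with each library left out in turn. Usp1 had 19769 and 20197 against 19854 and 19103, and Usp7, which acts on Mdm2 among other targets, had 10704 and 10807 against 10344 and 10578. The histone deubiquitinase Usp16 had 3894 and 4005 against 4147 and 4073.

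The other histone deubiquitinases were about as close between genotypes or varied more within one. Usp22, of the SAGA coactivator complex, had 383 and 309 normalized counts against 301 and 366. Usp3 had 342 and 436 against 502 and 373, with replicates far apart in both genotypes. Usp42 had 3292 and 3420 against 3128 and 3156 (log2 fold change -0.10, unadjusted p = 0.127, adjusted p = 0.954 by edgeR). Usp44 had 4493 and 5152 against 5036 and 5047, with overlapping genotypes.

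Usp5, which takes apart ubiquitin chains that are not attached to a protein, was the gene of smallest p among those lower in the mutants. It had 1146 and 1063 normalized counts in the controls and 880 and 1031 in the mutants. The genotypes did not overlap, yet the mutant replicate 2 was close to the lower control (log2 fold change -0.21, SE 0.0829, unadjusted p = 0.0307, adjusted p = 0.954 by edgeR). With each library left out in turn, its log2 fold change was between -0.32 and -0.10. Usp14, which works at the proteasome, had 511 and 567 against 590 and 555 and a log2 fold change of 0.08.

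Of the sex-linked genes, Usp9y had the smallest unadjusted p of all 71 genes. It had 196 and 215 normalized counts in the controls and 262 and 253 in the mutants, without overlap, and a log2 fold change of 0.32 (SE 0.104, 95% interval 0.09 to 0.55, unadjusted p = 0.011, adjusted p = 0.954 by edgeR). With each library left out in turn its log2 fold change was between 0.26 and 0.40, and DESeq2 gave 0.33 with an unadjusted p of 0.073. Ube1y1, the activating enzyme gene of the Y chromosome, had 236 and 247 against 273 and 263, a log2 fold change of 0.14 (unadjusted p = 0.169, adjusted p = 0.954 by edgeR). Usp9x had 6434 and 5926 against 5971 and 6704 and Usp26 had 257 and 253 against 219 and 284, both with overlapping genotypes.

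Among genes of endosomes and signaling, Usp8 had 11896 and 11474 normalized counts against 11570 and 11676, Usp15 had 10638 and 10502 against 10802 and 10834, and Usp2 had 9084 and 9960 against 9323 and 8816. Their log2 fold changes were between -0.07 and 0.03. Usp47, a relative of Usp7, had 17419 and 16891 against 17734 and 17737, a log2 fold change of 0.05. These 4 genes are among the highest of the Usp family per kilobase, and their smallest unadjusted p was that of Usp2, at 0.307.

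The remaining genes of smallest p in each direction each had an adjusted p of 0.954 by edgeR. Usp50 had 2415 and 2647 normalized counts in the controls and 2742 and 2765 in the mutants (log2 fold change 0.12, unadjusted p = 0.089). Usp39, a spliceosome protein without protease activity, had 871 and 815 against 918 and 905 (0.12, unadjusted p = 0.117). Usp53 had 557 and 591 against 633 and 621 (0.12, unadjusted p = 0.119). In these 3 genes both mutant libraries were the higher ones. Usp45, which acts in the repair of DNA crosslinks, had 742 and 762 against 699 and 673 (log2 fold change -0.13, unadjusted p = 0.0783). Usp52, the deadenylase subunit, had 546 and 523 against 499 and 470 (-0.14, unadjusted p = 0.105), outside the 5 smallest p and named after its value was seen.

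**Figure D4:**
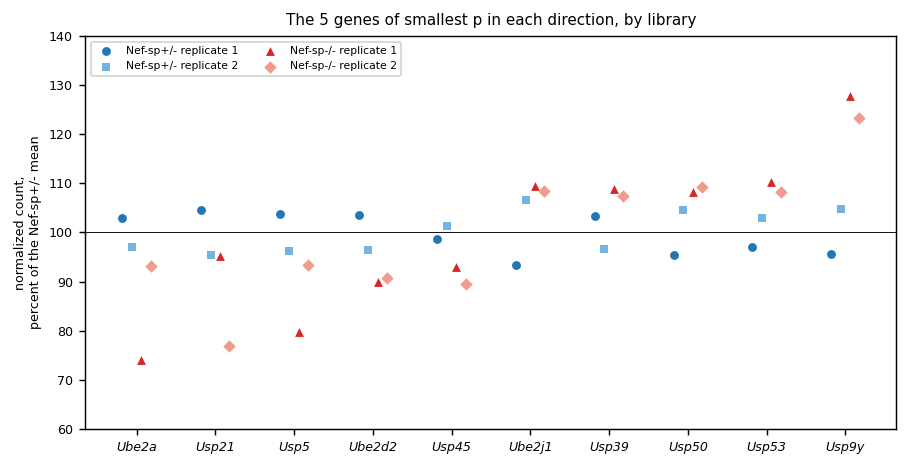
Normalized counts as a percent of the Nef-sp+/- mean (vertical axis, 60 to 140, not from 0) are plotted for the 5 genes of smallest p in each direction, with 1 point per library: circles and squares for Nef-sp+/- replicates 1 and 2, triangles and diamonds for Nef-sp-/- replicates 1 and 2. The 2 Nef-sp-/- points of Usp9y lie together above both controls, whereas those of Ube2a, Usp21 and Usp5 are far apart from each other.

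Marker sums of some other cell types lay apart between genotypes beside these values. The 7 Leydig cell markers summed to 19781 and 19899 normalized counts in the controls and 18832 and 16409 in the mutants, and the 4 peritubular myoid markers to 1414 and 1379 against 1229 and 1351, lower in both mutant libraries. Single members did not all follow the sums. Of the Leydig cell markers, Cyp11a1, Cyp17a1 and Hsd17b3 were lower in both mutant libraries, while Hsd3b1, Hsd3b6, Insl3 and Star overlapped between genotypes with log2 fold changes from 0.01 to 0.18, and of the peritubular myoid markers Acta2 was lower in both while Cnn1, Myh11 and Tagln overlapped. The 3 endothelial markers in the table summed to 29.9 and 33.1 against 20.8 and 26, of which Cdh5 was lower in both mutant libraries, Kdr overlapped and Tek, at the level of a few reads, was higher in both. The 2 epididymis markers in the table, Crisp1 and Rnase10, summed to 28.8 and 45.8 against 61.2 and 46.1, while Lcn5, Lcn8 and Lcn9 had no row. The sums of Sertoli cell, macrophage and germ cell markers overlapped between genotypes. Of all single features tested, the genotypes did not overlap in 34.5%. No marker gene had an adjusted p below 0.05 in the edgeR test (background 0.00932%). Cyp11a1, Cyp17a1, Catsper3 and Tnp1 had an unadjusted one below 0.05 (background 4.8%). The part of these cells in the differences of Ube2a, Ube2d2, Usp5 and Usp21 was not tested.

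The libraries were also compared one by one. For each library and gene, the deviation is the log2 of its normalized count over the mean of the other 3. In control replicate 1, 14 of 71 genes, or 19.7%, deviated by more than 0.2, near the 20.7% of all features tested. In control replicate 2 there were 2, or 2.82%, against 15.2% of all features, and in the mutant libraries 9, or 12.7%, against 18.3% and 3, or 4.23%, against 19.2%. Ube2k, which builds chains for degradation, had 2321 normalized counts in that library and 3254, 3184 and 2979 in the others, a deviation of -0.44. Usp12, a protease that needs the cofactor Wdr48, had 2614 there and 3430, 3465 and 3175 in the others, a deviation of -0.36. The same library had the low sum of elongating spermatid markers, whose part in these values was not tested.

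**Figure D5:**
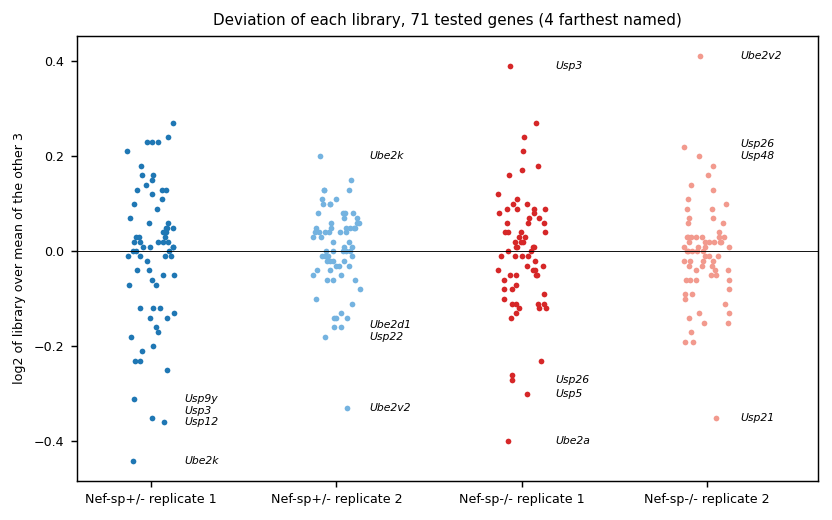
Each point is 1 of the 71 tested genes, and the vertical axis is the log2 of its normalized count in a library over the mean of the other 3 libraries, with libraries along the horizontal axis and the 4 farthest genes of each named. In Nef-sp+/- replicate 1, 14 points lie beyond 0.2 in either direction, with Ube2k lowest at -0.44 and Usp12, Usp3 and Usp9y also low.

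The calls depended on that library in 1 setting. Without control replicate 2, so that replicate 1 was the sole control and was assumed to vary as the mutant pair did, 3 of 71 genes had an adjusted p below 0.05 in edgeR (background 2.32%), namely Ube2k (log2 fold change 0.41, adjusted p = 0.00026), Usp12 (0.35, adjusted p = 0.0024) and Ube2j1 (0.22, adjusted p = 0.0195). Then 12 genes, or 16.9%, had an unadjusted p below 0.05, against 9.44% of all features tested. Without control replicate 1, 0 of 71 genes had an adjusted p below 0.05 (background 0.376%) and 2, Usp2 and Usp9y, had an unadjusted one (2.82%, against 5.85% of all features tested), and the log2 fold change of Ube2j1 was 0.03. Without mutant replicate 1 or 2 there were 0 and 0 at the adjusted threshold (background 0.00918% each), and 2 and 5 at the unadjusted one, or 2.82% and 7.04% against 4.44% and 3.56% of all features tested.

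The 61 tested genes with at most 20% of their stretches elsewhere included 2 at an unadjusted p below 0.05 by edgeR (background 4.8% of all features tested). Their median log2 fold change was -0.02. Neighboring genes bear on others. Ube2v1 overlaps exons of Tmem189 on the same strand, Ube2g2 those of Sumo3 and Mir1930, and Usp49 those of Med20. Likewise, Usp50 overlaps exons of Gm10774, Usp10 those of Gm20388 and Usp9x those of Gm15027. Reads in these overlaps cannot be assigned to 1 gene.

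Intron reads gave a second readout of the same genes. Of the 73 genes, 62 had an intron sense row, and 38 passed the expression filter among 3403 features tested. None had an adjusted p below 0.05 in edgeR (0 of 38, background 0.0294%) and 0 had an unadjusted p below 0.05 (background 2.35%). DESeq2 also gave 0 at the adjusted threshold. The smallest unadjusted p was that of Usp40, with 22.4 and 14.7 normalized intron counts in the controls and 13.1 and 6.6 in the mutants (log2 fold change -0.87, unadjusted p = 0.0609). Its exon counts, 435 and 377 against 382 and 431, overlapped.

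Intron reads were a small part of the reads of most of these genes. They made up 0.965% of exon plus intron sense reads in the median gene of those with an intron row. Over the pooled reads of all genes the share was 2.88%. A median and a pooled share are unlike measures, and a median over all genes was not computed. In 31 genes the share was below 1%. It was 25.3% in Ube2v2, on few reads, and 11.4% in Ube2d3. By library, the share of Ube2d3 was 12.2% and 11.3% in the controls and 10.8% and 11.4% in the mutants, which overlapped.

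The libraries kept the strand, and antisense rows were listed for few of the genes, 19 for exons and 14 for introns. Reads antisense to introns of Usp37 were the most abundant, with 1238 and 2063 raw reads in the controls and 1304 and 1209 in the mutants. The introns of Usp8 had 395 and 603 antisense reads against 366 and 410, and Usp50 lies there on the opposite strand. Exons of Usp14 had 201 and 282 antisense reads against 193 and 201, and they overlap exons of Thoc1 on the other strand. Each of these was highest in control replicate 2, the deepest library.

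The other genes of the pathway did not pass the test either. Of 60 listed genes for ubiquitin, activating enzymes, other deubiquitinating enzymes, ligases and adaptors, 57 were in the table and 55 were tested. None had an adjusted p below 0.05 by edgeR, nor by DESeq2, and 1 of 55, or 1.82%, had an unadjusted p below 0.05 in edgeR, against 4.8% of all features tested, with 26 above and 29 below 0 and a median log2 fold change of -0.00. Ubb, a polyubiquitin gene, had 41523 and 42661 normalized counts in the controls and 41406 and 40901 in the mutants. Ubr1, a ligase that reads the amino end of proteins, had 448 and 461 against 505 and 525 (log2 fold change 0.18, unadjusted p = 0.0401, adjusted p = 0.954 by edgeR). Rad18, the ligase partner of Ube2a and Ube2b, had 1086 and 1025 against 1002 and 1063, and Uba1, the main activating enzyme, had 3667 and 3911 against 3698 and 4086. Without control replicate 2, 3 of the listed genes had an adjusted p below 0.05 in edgeR (background 2.32%): Klhl10, Otub2 and Rnf133.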

How the data were processed

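Raw counts of strand-specific, ribosomal RNA-depleted libraries were used as deposited. The authors mapped the reads, of 50 bases, to mm9, kept perfect matches and counted them per feature, annotation category and strand. Columns of the authors' own comparison, deposited as a mean normalized signal, a log2 fold change and p-values with adjusted p-values, were not used. Neither tool versions nor how multiply matching reads were handled is given in the sources used here. Groups came from the sample labels.

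All gene exon sense features that passed the edgeR filter (minimum count 10) were fitted with the quasi-likelihood test of edgeR 4.0.16 in R 4.3.3 after TMM normalization, without covariates, as Nef-sp-/- over Nef-sp+/-, with Benjamini-Hochberg adjustment over all features tested. Gene intron sense features were fitted likewise. Standard errors and 95% intervals derive from the fit. The test was checked on simulated counts. Lengths and positions are from GENCODE vM1 on mm9. Each 50-base exonic stretch was searched exactly on both strands of 22 chromosomes.

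Named are the genes with an adjusted p below 0.05 in either fit, the 5 of smallest p in each direction, the 6 highest of each family per kilobase, those not tested, and genes with known roles in testis or on histones. Usp18 was on that last list and is not analysed here. One gene of that list entered the fits and counts and is not reported here. The members, lists and roles were chosen with earlier results of these data known. Alternatives were DESeq2 size factors, all reads as library size, other filters, DESeq2 1.42.0, a block for the replicate number, and leaving out each library. Figures were drawn with matplotlib 3.10.9.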

Additional observations from a re-analysis of the deposited data

How the results depend on the processing

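No Ube2 or Usp gene had an adjusted p below 0.05 under 9 of the 10 alternatives, and the exception was the fit without control replicate 2. With a library left out, the number of these genes at an adjusted p below 0.05 ranged from 0 to 3, that at an unadjusted p below 0.05 from 2 to 12, and that of the other pathway genes at the adjusted threshold from 0 to 3. The difference in the share of reads ranged from -0.00291 to 0.000267 percentage points for Ube2 genes, with the positive value without control replicate 2, and from -0.0187 to -0.00685 for Usp genes. With a library left out, the median log2 fold change ranged from -0.02 to 0.01 for Ube2 genes, above the -0.04 of all 4 libraries, and from -0.02 to 0.0 for Usp genes, and with all reads as library size it was -0.06 and -0.04. DESeq2 gave 0 genes at an unadjusted p below 0.05, in place of 3, and no expression filter gave 4, with Usp43 added. The cause of these moves was not tested. With the replicate number as a block, 0 genes had an adjusted and 2 an unadjusted p below 0.05 in edgeR (Usp5 and Usp9y). For this block and for the fit without the filter, the share over all features was not computed, so that these counts have no background. The labels do not say that same-numbered libraries are paired, and their deviations from the genotype means were correlated at -0.091 in exons and -0.15 in introns. A block with crossed numbers, added after seeing the data, gave 0 genes in introns. With 2 libraries per genotype, depth limits the comparison mainly for Ube2d1, Ube2v2, Ube2l6 and Usp43, and counts of Ube2s, Ube2v1, Ube2d2 and Usp9x may include reads of other places.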
